A study of Saccharomyces cerevisiae with 30 samples.

Results

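The long genes of budding yeast (Saccharomyces cerevisiae) are described here through the DNA breaks and the Orc5 and Arp5 binding sites mapped inside them. The set held the nuclear protein-coding genes of at least 4000 bp. Unnamed reading frames with the length of a full Ty retrotransposon frame (from 5200 bp, and short of the 5665 bp of the longest unnamed frames kept) were left out, as were the subtelomeric helicase genes YRF1-1 to YRF1-8 and the flocculin genes FLO1, FLO5, FLO9, FLO10 and FLO11. Of 6002 nuclear protein-coding genes 240 reached 4000 bp, and 190 stayed in the set after 40 unnamed frames and 10 YRF1 and FLO genes were left out. Of the 190 genes 181 had a gene name and 9 had only a systematic name. They ran from 4002 bp (PDR18, a drug efflux transporter) to 14733 bp (REA1, also called MDN1, an ATPase that matures the large ribosomal subunit), with a median of 4720.5 bp, and covered 0.999 Mb or 8.28% of the genome. Just inside the length limit, 1 of the 26 genes within 200 bp above it had a break summit, and so had 1 of the 26 named genes within 200 bp below it.

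Long genes encode the giant proteins of the cell: motor proteins, checkpoint and TOR kinases, DNA and RNA polymerase subunits, chromatin remodelling ATPases, nuclear pore scaffolds, multifunctional biosynthetic enzymes and membrane transporters. A polymerase takes longest to cross such genes, and a replication fork has to travel through more transcribed DNA to pass them. Replication starts at origins, to which the origin recognition complex binds. Orc5 is a subunit of that complex, and most yeast origins lie between genes. INO80 is a chromatin remodeller and Arp5 one of its subunits. Mot1 removes the TATA-binding protein from DNA.

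The strains used anchor-away, in which rapamycin draws a protein with an FRB tag out of the nucleus. Break-seq maps DNA breaks by sequencing from their tagged ends. It covered strains labelled WT-FRB, INO80-FRB, Mot1-FRB and INO80-FRB Mot1-FRB (WT, INO80, Mot1 and INO80 Mot1 below), each without and with 100 mM hydroxyurea (HU), an inhibitor of nucleotide synthesis that slows replication forks. There were 2 libraries in each of these 8 groups, and all 16, those of WT included, came from cells kept in rapamycin for 3 h. ChIP-seq was run on an Orc5-FRB strain (1 library without and 1 with rapamycin) and an Arp5-FRB strain (2 and 2); these cells were treated with nocodazole for 1 h, with or without 8 µg/ml rapamycin for 1 h, and were held in G1 by alpha factor at 5 µg/ml for 1 h. The labels' protocol names Orc2 as the depleted protein for all ChIP-seq samples, while the genotypes name Orc5 and Arp5, and the genotype names are used here.

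The values were positions of deposited peaks, and a break was placed in a gene when its summit, the highest point of the peak, lay between the gene's start and end. The lists held 5 to 510 break peaks, and read depth is unknown. The Mot1 lists stood apart with 40 and 14 peaks without HU and 24 and 5 with HU, so a gene missing from them may lie below what those lists could show. Each break peak carries the authors' fold over its local background. It describes the height of a peak within its own list and was not compared between groups.

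Breaks were found in few long genes, and most summits lay in unnamed frames. Of the 190 genes 16 (8.42%) had a summit in at least 1 of the 16 libraries, against 3.6% of all 6002 genes. A longer gene has more room for a summit, and such shares of genes do not allow for length. The 9 unnamed frames supplied 7 of these 16. Of the 181 named genes 9 (4.97%) were broken, and 172 had no summit in any library. The 268 summits in long genes, of 3682 nuclear summits in all, were likewise divided unevenly: 223 lay in unnamed frames, 33 in NUM1 and HAP1, and 12 in the other 7 named genes. A summit in at least 10 libraries was found in 6 long genes (3.16%), NUM1, HAP1 and the unnamed YIL177C, YJL225C, YML133C and YDR261C-D, against 1.37% of all genes. Of all named genes 11 did so, and 9 of them were YRF1 or FLO genes, which leaves NUM1 and HAP1.

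**Figure D1:**
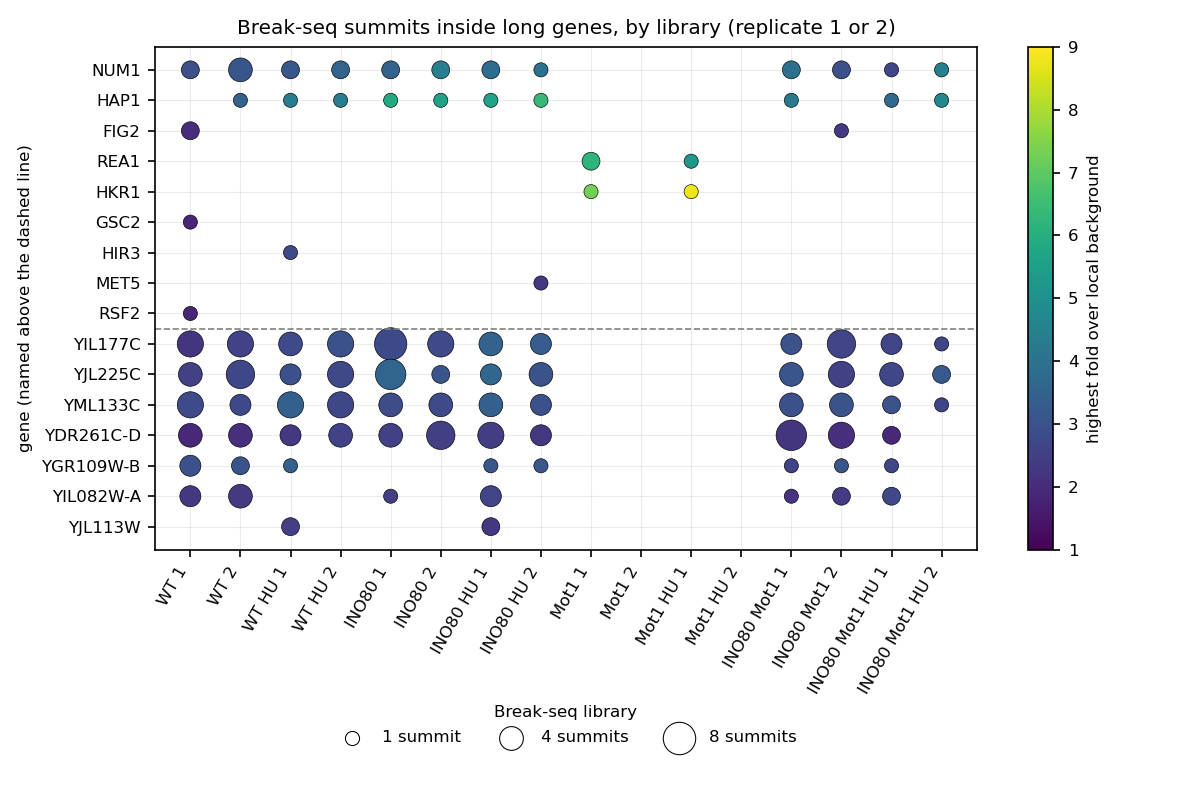
Long genes with a break summit (rows, named genes above the dashed line) in each of the 16 Break-seq libraries (columns); point size gives the number of summits and colour the highest fold over local background. NUM1 and HAP1 form nearly full rows apart from the 4 Mot1 lists, while the other 7 named genes have points in 1 or 2 libraries each.

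NUM1 encodes the large cortical protein that anchors dynein and mitochondria to the cell cortex, and its reading frame is known to hold a run of near-identical tandem repeats. The gene lies at IV:755628-763874 in sacCer3 (8247 bp, plus strand). It had a summit in all 12 libraries other than Mot1, with 1 to 4 summits per library and 23 in all. Every one lay between 1836 and 3866 bp from the gene's start, or 22.3 to 46.9% of its length, and the peaks together spanned IV:757392-759706.

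The highest fold at NUM1 was 2.92 and 3.15 in the 2 WT libraries, and 3.17 and 3.58 in WT with HU. With INO80 depleted it was 3.48 and 4.39, and 3.82 and 4.03 with HU. With both proteins depleted it was 3.93 and 2.94, and 2.68 and 4.44 with HU. Within each of the 12 lists this peak stood above 73.1 to 93.8% of the nuclear peaks by fold. The NUM1 peaks of a library together covered 663 to 1838 bp of the gene (median 1429 bp). Single peaks were 165 to 1313 bp wide, and the widest in each list was broader than 83.0 to 97.5% of the peaks of that list. The 4 Mot1 lists had no summit in NUM1, and the first Mot1 library had its nearest one 109598 bp away. The nearest Orc5 site without rapamycin lay 182 bp from the gene, outside the broken stretch.

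HAP1 encodes the heme-responsive activator of respiratory genes, and the reference genome is known to carry a Ty1 element at the end of its reading frame. It lies at XII:646415-650923 (4509 bp, plus strand). In 10 libraries it had exactly 1 summit, always 9 to 42 bp before the end of the gene, in a stretch at XII:650756-651013. The fold was 3.49 in the second WT library, 4.42 and 4.35 in WT with HU, 5.87 and 5.60 in INO80, and 5.62 and 6.35 in INO80 with HU. It was 4.19 in the first INO80 Mot1 library, and 3.73 and 4.70 in INO80 Mot1 with HU. These peaks ranked between place 4 and place 16 of their lists by fold, above 93.9 to 98.7% of nuclear peaks, and were narrow (145 to 252 bp).

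Of the 6 libraries that lacked the HAP1 summit, the first WT and the second INO80 Mot1 library had their nearest summits 761 and 722 bp away from the gene. The other 4 were the Mot1 lists, with nearest summits 61695 to 178298 bp away. Only 82 to 168 bp of HAP1 were covered by these peaks, which ran past the end of the gene. The next annotated gene is an unnamed frame, YLR256W-A (XII:651117-652439), 193 bp further on. HAP1 and NUM1 differed in the place of their breaks: a fixed edge in one and a broad inner stretch in the other.

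**Figure D2:**
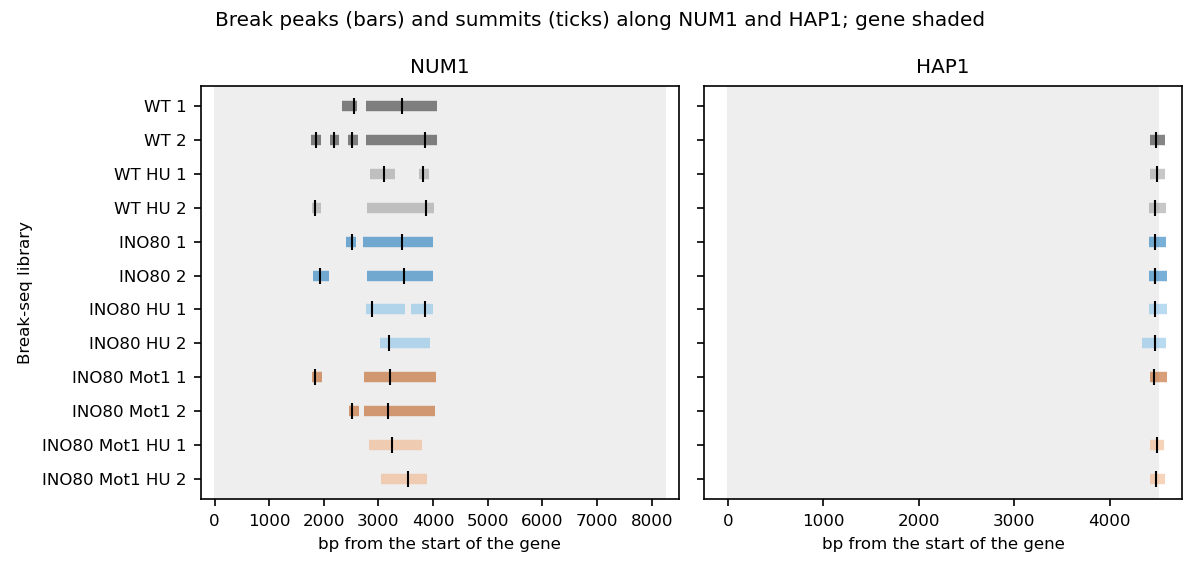
Break peaks (bars) and their summits (ticks) along NUM1 and HAP1 in bp from the start of the gene, for the 12 libraries other than Mot1; the gene body is shaded. NUM1 summits lie between 1836 and 3866 bp in all 12 libraries, and HAP1 summits lie 9 to 42 bp before the gene's end in 10.

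The cell wall and mucin genes were the list with most broken members, 3 of 5, against 4.97% of named long genes. This list was chosen with earlier results of these data known, so the count is no evidence about such genes. None of the 3 had a summit in both libraries of any group. FIG2 and HKR1 encode mucin-like surface proteins with repeated segments, a mating adhesin and a sensor of osmotic stress. FIG2 (III:267434-272263) had 2 summits in the first WT library (folds 2.06 and 1.78) and 1 in the second INO80 Mot1 library (2.26), all between 1218 and 1675 bp from its start. Outside the Mot1 lists these were also the libraries without a HAP1 summit, which was seen after the values were known. HKR1 (IV:1306267-1311675) had 1 summit in the first Mot1 library (fold 7.28, at 2069 bp) and 1 in the first Mot1 library with HU (8.80, at 2112 bp). The 12 lists of the other strains had none in HKR1. GSC2, a catalytic subunit of the cell wall glucan synthase, had 1 summit, 46 bp from its start, in the first WT library (fold 1.83).

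REA1, the longest gene (XII:349006-363738, minus strand), was broken in the same pair of Mot1 libraries as HKR1. Its 3 summits lay 12559 to 13300 bp from the start, or 85.2 to 90.3% of the length, with folds of 6.19 and 5.68 in the first Mot1 library and 5.24 in the first with HU. Within those short lists the REA1 peaks were of middling height, above 52.5 and 41.7% of the nuclear peaks, and the HKR1 peaks stood above 72.5 and 83.3%. The second Mot1 library of either kind had no summit in any long gene, so neither gene was found in both replicates. Outside the Mot1 lists, summits came near REA1 in the first WT library with HU (411 bp away) and the second INO80 library with HU (516 bp away).

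The last 3 named genes were each broken in 1 library. RSF2, a zinc-finger protein needed for growth on glycerol, had a summit 193 bp from its start in the first WT library (fold 1.84). HIR3, a subunit of the HIR nucleosome assembly complex, had one at 3267 bp in the first WT library with HU (2.75). MET5, the sulfite reductase beta subunit, had one at 3748 bp in the second INO80 library with HU (2.27). All 3 genes lie within 36.8 kb of chromosome X (X:658917-695696), although each was broken in a different group.

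The unnamed frames held most of the summits, and no function is given here for any of them. The gene table used does not annotate them, and whether some belong to the Ty or subtelomeric repeat families that the rule leaves out was not tested. YIL177C (IX:483-6147) had 52 summits, YJL225C (X:466-6130) 49 and YML133C (XIII:461-4684) 44. Each was hit in all 12 libraries other than Mot1, and each lies under 500 bp from the chromosome end. The first pair are both 5665 bp long and share their lowest summit position, 352 bp from the start in the first INO80 library. Reads from such look-alike frames may have been shared between them by the alignment, and their counts are uncertain for that reason. In the first Mot1 library and the first with HU, YJL225C had a summit 246 and 48 bp beyond its end, and none inside.

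YDR261C-D (IV:987534-992349) had 47 summits in 11 libraries and lies 759 bp from a frame of Ty length. It was missing from the second INO80 Mot1 library with HU and from the Mot1 lists. YGR109W-B (VII:707610-712254) was hit in 8 libraries, YIL082W-A (IX:205635-210132) in 7 and YJL113W (X:198678-203325) in 2, the first library of WT with HU and of INO80 with HU. YGR109W-B, YIL082W-A and YJL113W lie 431, 533 and 1293 bp from a tRNA gene. YLR278C and YLR419W had no summit.

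The place of the summits differed from gene to gene, from 22.3 to 46.9% of the length in NUM1 to over 99% in HAP1 and a median of 97.0% in YGR109W-B. Pooled summits mainly describe YIL177C, YJL225C and YML133C, which held 145 of the 268. Cut into a first, middle and last part of equal length, the genes held 28.4% (95% Wilson interval 23.3 to 34.03%), 39.6% (33.9 to 45.5%) and 32.1% (26.8 to 37.9%) of the 268 summits in these parts. The intervals cover counting error only, since summits of 1 gene in several libraries are not independent. Just outside the genes, the 500 bp flanks added 5 genes with no summit inside. INO80, the gene of the depleted remodeller, had a summit 303 bp upstream in the first WT library (fold 1.68). PDR15, a drug transporter, had one 88 bp upstream in the second INO80 Mot1 library (2.26). NUP192, a nuclear pore scaffold protein, TCB3, a lipid-binding tether of the endoplasmic reticulum, and UTP20, a small-subunit processome protein, had one downstream. These 5 genes were 2.63% of the long genes, against 5.93% of all genes with a summit in the flanks alone. Inside or in the flanks, 21 long genes (11.1%) had a summit, against 9.53% of all genes, and 169 had none.

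Most role lists held no broken gene, which for lists of 6 to 17 genes cannot be told apart from the 4.97% of all named long genes. None of the 13 replication and repair genes had a summit, among them the checkpoint kinases MEC1 and TEL1, the polymerases POL1 and POL2 and the topoisomerase TOP2. The same was true of the 7 nuclear pore genes, the 13 phosphoinositide, Ras and TOR signalling genes, the 17 ABC transporters and P-type ATPases, the 10 metabolic enzymes, the 15 genes of membrane traffic and lipid transfer and the 6 of ubiquitin and the proteasome. HAP1 was the 1 broken gene of 19 in chromatin and transcription, REA1 the 1 of 10 in ribosome biogenesis, splicing and translation, and NUM1 the 1 of 16 motor, cytoskeleton and polarity genes. DYN1 (dynein heavy chain, 12279 bp) and TRA1 (a subunit of the SAGA and NuA4 acetyltransferase complexes, 11235 bp), the next longest genes after REA1, had none, and neither had INO80 or MOT1.

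Per length of gene, named long genes carried more break summits than named genes of 1000 to under 4000 bp. The density was 2.94 ± 1.58 summits per Mb in the first and 0.908 ± 0.914 in the second (SD, n = 16 libraries). It was higher in long genes in 14 of 16 libraries and lower in none, with a difference of 2.03 ± 1.04 per Mb (exact two-sided sign-flip permutation, p = 0.000122, the smallest 14 unequal libraries can give). This p holds the spread between libraries, not that between genes. NUM1 and HAP1 carried that difference. Without them it was -0.113 ± 1.17 per Mb (exact sign-flip permutation p = 0.708), higher in 5 and lower in 9 libraries. Both genes were picked after their values were seen, while the shorter genes kept their most broken members. A fall was thus bound to follow, and this p is no fair test of the other long genes. Without NUM1 alone the difference was 0.542 (exact sign-flip permutation p = 0.0200), and without HAP1 alone 1.39 (p = 0.000122). Named genes under 1000 bp had 2.56 ± 2.35 summits per Mb, and the 9 unnamed long frames 328 ± 229.

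**Figure D3:**
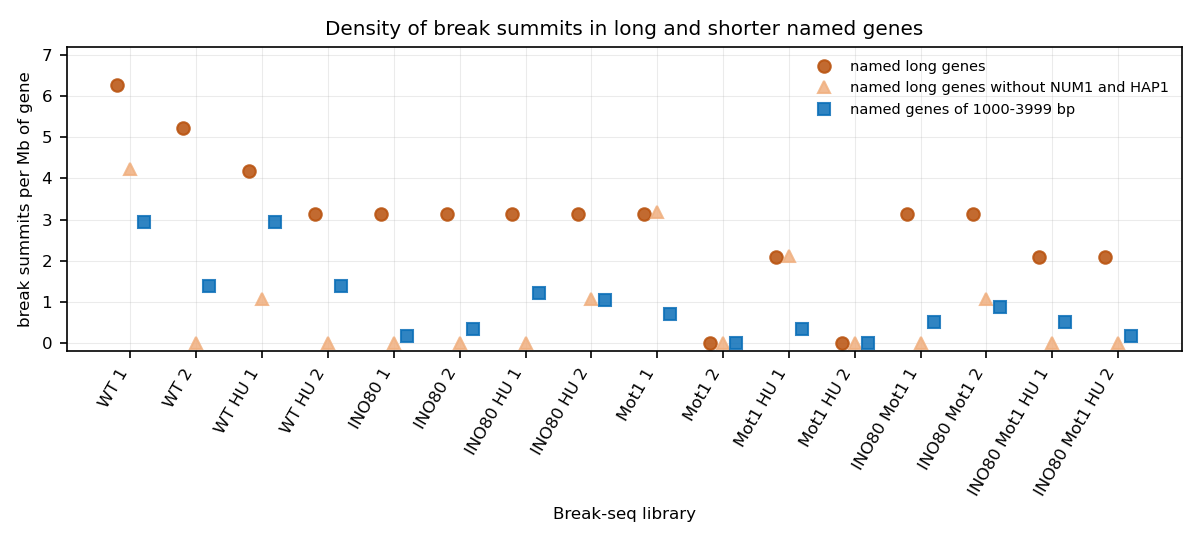
Break summits per Mb of gene in each of the 16 libraries for the 181 named long genes, the same genes without NUM1 and HAP1, and the 3134 named genes of 1000 to under 4000 bp. Named long genes lie above the shorter genes in 14 libraries, and without NUM1 and HAP1 they do so in 5.

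No test of HU or of a depletion passed for the share of breaks that fell in long genes. Long genes took 6.73 and 8.38% of nuclear break peaks in WT, 6.45 and 7.69% in WT with HU, 8.71 and 7.25% in INO80, and 8.04 and 5.33% in INO80 with HU. The share was 8.13 and 8.67% in INO80 Mot1, and 7.55 and 3.55% with HU. In Mot1 it was 7.50 and 0%, and 8.33 and 0% with HU, on 3 and 2 peaks. All libraries outside Mot1 lay between 3.55 and 8.71%, and the groups overlapped. Outside Mot1 most of these peaks lay in unnamed frames. Named genes held 6 of the 30 peaks in the first WT library and 5 of the 29 in the second. The 3 and 2 peaks of the Mot1 lists all lay in the named genes HKR1 and REA1. The shares of Mot1 and of the other strains thus rest on different kinds of gene.

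Differences were tested by exact two-sided permutation over 8 against 8 libraries, within the strata of the other factors, with Benjamini-Hochberg adjustment over 6 tests. By this exact permutation the share differed by -1.05 percentage points with HU (p = 0.403, adjusted p = 0.483), 1.52 with INO80 depleted (p = 0.316, adjusted p = 0.475) and -1.86 with Mot1 depleted (p = 0.259, adjusted p = 0.475). For the number of long genes hit the differences were -0.25 genes with HU (exact permutation, adjusted p = 0.870), 2.75 with INO80 depleted (adjusted p = 0.222) and -3.75 with Mot1 depleted (unadjusted p = 0.0278, adjusted p = 0.167). The Mot1 lists enter each of these means, and their length cannot be told apart from the depletion. Without these 4 lists only INO80 Mot1 against INO80 was left, with and without HU, which is Mot1 depletion added to INO80 depletion. That difference was -0.25 genes (exact permutation p = 1), and it says nothing about Mot1 depletion alone.

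Gene by gene, few long genes separated both libraries of one group from both of another. YIL082W-A had summits in both WT libraries and in neither with HU, as 0.3% of all genes did, and no long gene did the reverse (0.0666% of all genes). The second WT library with HU had a summit 236 bp upstream of YIL082W-A, and the frame no longer counted as lost when any overlap of a peak was enough. YGR109W-B was hit in each WT library and no INO80 library (0.183%), and in each INO80 library with HU and none without (0.0833%). In the INO80 libraries without HU, the first had summits just outside this frame on both sides and the second upstream. Against WT, the Mot1 lists lacked 7 long genes without HU (1.58% of all genes) and 6 with HU (1.33%). NUM1 and the unnamed frames YDR261C-D, YIL177C, YJL225C and YML133C were in both sets, HAP1 was in the set with HU, and YGR109W-B and YIL082W-A in the set without. These comparisons share their WT libraries. No long gene had summits in both libraries of a depleted group and in neither of WT. Of all genes 0.05% did so in INO80, 0.0333% in INO80 Mot1 and 0% in Mot1, and with HU 0.0666%, 0.0167% and 0%. None was lost with INO80 depleted under HU (0.05% of all genes), or from INO80 Mot1 (0.117% of all genes without HU and 0.167% with HU). HU removed and added no long gene in Mot1 (0.0167% and 0% of all genes) or in INO80 Mot1 (0.117% and 0.0167%), and removed none in INO80 (0%).

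Orc5 sites were rare inside long genes and more numerous in the library with rapamycin. There was 1 library of each kind, so the difference has no replicate check. A midpoint of an Orc5 peak of up to 10 kb lay in 7 long genes (3.68%) without rapamycin, against 5.01% of all genes, and in 23 (12.1%) with it, against 9.01%. All 7 were also among the 23, and the other 16 had none without it, as was the case for 6.81% of all genes. The reverse, a midpoint without rapamycin alone, held for no long gene and for 2.82% of all genes. A longer gene has more room for a midpoint, and these shares of genes do not allow for length. Per Mb of gene, Orc5 midpoints were fewer in long genes than over all genes, both without and with rapamycin. The 1412 peaks without and 1965 with rapamycin put 10 (0.708%, exact binomial 95% interval 0.340 to 1.30%) and 33 midpoints (1.68%, 1.16 to 2.35%) in long genes. Over all protein-coding genes the share was 22.5% of peaks without and 29.7% with rapamycin, so the difference was not limited to long genes.

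The 7 genes with an Orc5 midpoint in both lists were TOR2, a TOR kinase, FIG2, BLM10, a proteasome activator, ATG2, an autophagy lipid transfer protein, PDR15, TOM1, a ubiquitin ligase, and the frame YIL082W-A. The widest peak without rapamycin, 1694 bp at XI:55267-56960, covered the end of TOR2 (midpoint at 97.6% of its length). FIG2 held 3 midpoints without rapamycin, at 576, 2125 and 2841 bp. Its break summits, at 1218 to 1675 bp, lay between the first pair of these. BLM10 held 2 midpoints at 69.5 and 86.4% of its length, the wider peak 929 bp across. The TOM1 peak without rapamycin is listed with a width of 1 bp, so such midpoints rest on very short calls. Of the 16 broken genes FIG2 and YIL082W-A also held an Orc5 midpoint without rapamycin.

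With rapamycin the midpoints gathered at the ends of long genes. The last 500 bp held 19 of 33 midpoints, or 200 per Mb, the first 500 bp 5 (52.6 per Mb) and the interior 9 (11.1 per Mb). Some midpoints near the ends rest on very short calls, such as 1 bp in CDC39, 3 bp in DYN1 and 6 bp in VMR1. The last 10% of the gene held 20 of 33 (60.6%), against 42 of 107 (39.3%) in named genes of 2000 to under 4000 bp, a difference between single lists without a test. That part spans more bp in long genes. In an equal window, the last 500 bp, the shorter genes held 51 of 107 midpoints (98.8 per Mb) with rapamycin. Their first 500 bp held 43 (83.3 per Mb) and their interior 13 (7.55 per Mb). Without rapamycin the order was the opposite, 3 of 10 (30%) in long genes and 17 of 40 (42.5%) in the shorter ones. In long genes those 3 lay in the last 500 bp (31.6 per Mb), and none lay in the first 500 bp. The last 500 bp of the shorter genes held 19 of 40 (36.8 per Mb) without rapamycin. Midpoints found with rapamycin alone included those at 99.8% of MEC1, 97.6% of PMD1, a negative regulator of early meiotic genes, 99.6% of FAB1, a phosphoinositide kinase, and 98.7% of TSC11, a TOR complex subunit. DYN1 held one 25 bp after its start and 2 near its end.

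**Figure D4:**
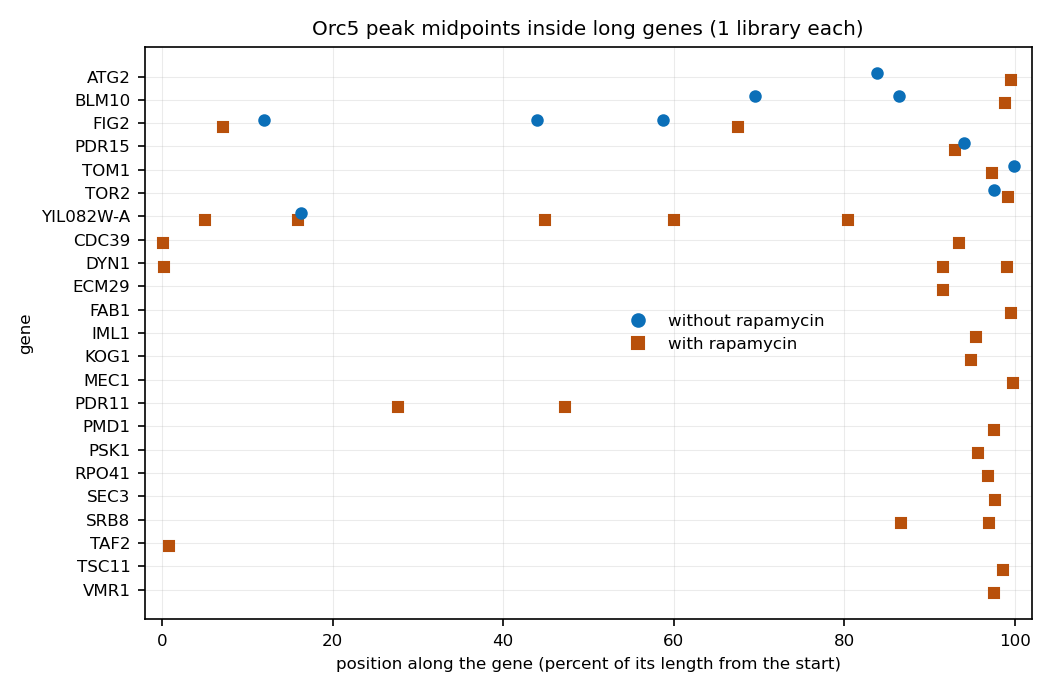
Position of each Orc5 peak midpoint inside a long gene, in percent of the gene's length from its start, without rapamycin (circles, 10 midpoints) and with rapamycin (squares, 33 midpoints), 1 library each. Most squares, 20 of 33, lie in the last 10% of the gene.

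Arp5 peaks were common in long genes, and their midpoints were fewer per length than in shorter genes. They could be counted in 100 long genes. Another 73 lie on chromosomes not used because at least 1 of the 4 lists had no peak there, and 17 lie under peaks wider than 10 kb, which were left out. Of the 100 genes 90 had a midpoint in all 4 lists, against 56.2% of all genes, and a longer gene has more room for a midpoint. PDR18 was the 1 gene without any. Named long genes had 0.754 ± 0.0894 midpoints per kb (SD, n = 4 lists) and named genes of 1000 to under 4000 bp 0.887 ± 0.0656. The difference of -0.133 ± 0.0292 per kb was negative in 4 of 4 lists (exact sign-flip permutation p = 0.13, the smallest 4 lists can give).

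A difference in the Arp5 density of long genes with rapamycin was not detectable with 2 lists a group. It was 0.697 and 0.786 midpoints per kb without and 0.820 and 0.642 with rapamycin, so the groups overlapped. The difference was -0.0106 per kb (exact two-sided permutation, 2 against 2 lists, p = 1, and 0.3333 is the smallest such a design allows). In 17 of the 100 genes both lists with rapamycin held more midpoints than both without, as in 7.59% of all genes, and in 15 both held fewer, as in 8.45%. Shorter genes have room for fewer midpoints and tie more readily, so the shares over all genes are not a like comparison. With 2 lists a group and no ties, random order alone separates the groups, in either direction, in 0.3333 of cases. Neither count was tested.

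PRP8, the core spliceosome protein, held 1 and 1 midpoints without and 5 and 7 with rapamycin. Its single peaks without rapamycin were 7492 and 8155 bp wide, wider than the gene (7242 bp). Peaks of 2088 and 1989 bp were among those with rapamycin. A count of midpoints is thus no measure of how much of a gene Arp5 peaks covered. The neighbour of PRP8 on chromosome VIII, DNA2, a nuclease and helicase of Okazaki fragment maturation, held 2 and 2, then 6 and 4. INO80 held 3 and 3, then 5 and 4, and HSL1, a kinase of the morphogenesis checkpoint, 2 and 4, then 5 and 6. Both groups of lists were apart in these 4 genes, with the higher counts in rapamycin. In the other direction, CYR1 (adenylate cyclase) held 7 and 5, then 3 and 1, SSK2 (a MAP kinase kinase kinase of the osmotic stress pathway) 6 and 8, then 2 and 5, and SNF2 (the SWI/SNF ATPase) 6 and 5, then 4 and 3. These genes are examples picked after their values were seen.

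The density of Arp5 midpoints, which is not the length covered by peaks, varied widely among long genes, within role lists too. POL1, the catalytic subunit of DNA polymerase alpha, had the most Arp5 midpoints per kb, 1.42 (7, 7, 7 and 4 midpoints, the lists without rapamycin first), followed by POL2 of polymerase epsilon (1.35). MLP1 of the nuclear pore basket (1.29), APC1 of the anaphase-promoting complex (1.29), TOP2 (1.28) and IML1 of the SEACIT complex (1.26) came next. After PDR18 the fewest were in YJL113W (0.108), CMR2 (0.152), ESP1, the separase (0.153), RIM15, a kinase of quiescence entry (0.188), and IRA2, a Ras GTPase activator (0.216). RIM15 held 1 peak in each list, 5431 to 5698 bp wide and so wider than the gene (5313 bp). Few midpoints can therefore stand for wide peaks. By list, the median ran from 0.434 per kb in 6 ribosome biogenesis, splicing and translation genes to 1.04 in 5 genes of membrane traffic and lipid transfer. It was 0.826 in 9 replication and repair genes and 0.651 in 7 of chromatin and transcription, against 0.775 over all 100 long genes and 0.945 over all genes measured. NUM1, HAP1, FIG2, HKR1 and REA1 were not measured for Arp5. GSC2 held 5 and 5 midpoints without and 3 and 1 with rapamycin, HIR3 6 and 7, then 5 and 4, MET5 4 and 5, then 3 and 3, and RSF2 3 and 3, then 4 and 5.

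Along long genes, Arp5 midpoints were densest in both outer segments. The first 500 bp had 1.06 ± 0.0971 midpoints per kb (SD, n = 4 lists) and the last 500 bp 1.05 ± 0.185. The next 500 bp from the start had 0.620 ± 0.0849 and the interior 0.667 ± 0.0704. Upstream and downstream 500 bp flanks had 0.825 ± 0.161 and 0.635 ± 0.168. In each of the 4 lists both outer segments lay above the interior. Named genes of 2000 to under 4000 bp had 1.16 in the first 500 bp, 0.645 in the next, 0.695 in the interior and 1.04 in the last. Each of these means lay within the range of the 4 lists in long genes. Compared list by list, long genes were lower in the first 500 bp and in the interior in all 4 lists. In the next 500 bp and the last 500 bp the lists went both ways. These differences by segment were not tested.

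**Figure D5:**
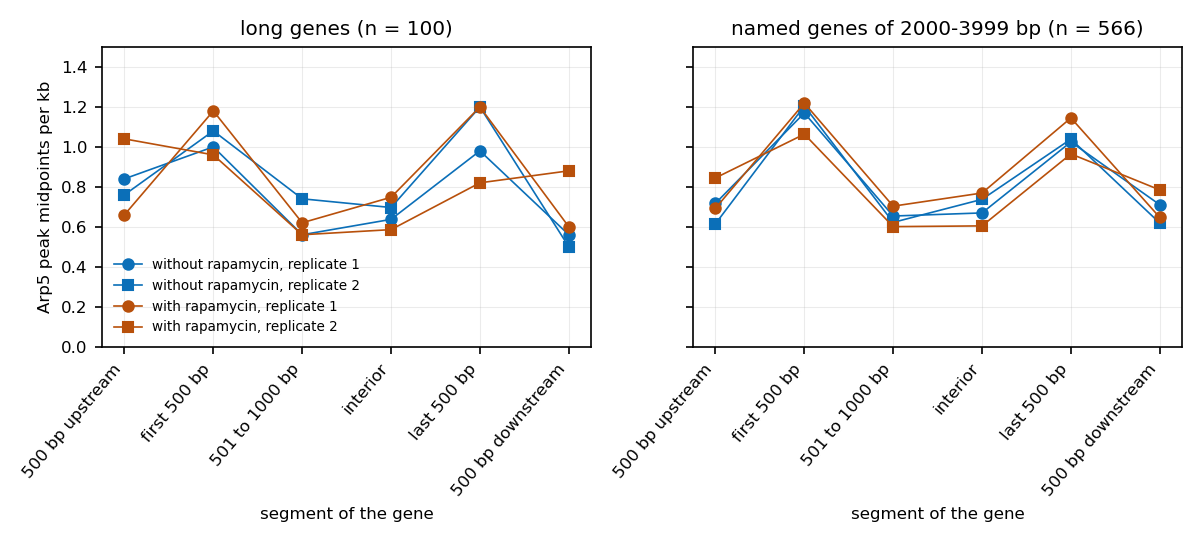
Arp5 peak midpoints per kb by segment, from 500 bp upstream to 500 bp downstream, in 100 long genes and in 566 named genes of 2000 to under 4000 bp; each line is 1 of the 4 lists. Both outer 500 bp segments of the gene stand above the interior in all 4 lists in each class.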

How the data were processed

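The authors deposited a peak list for each library, with replicates kept apart: 16 for Break-seq, 2 for Orc5 and 4 for Arp5. The 8 NET-seq libraries were not analysed here. Reads were aligned with Bowtie2 to sacCer3, per the submitters' processing notes, and which peak callers were run is not stated in the sources used here. The deposited break peaks have a score, a fold over local background, −log10 p and −log10 q. Per the file headers, the deposited Arp5 values are a count of reads in the ChIP sample, a control signal, their ratio (enrichment) and a q-value. The deposited Orc5 lists hold positions only. Depth is unknown, and intervals cover counting error only. Nothing says that replicates were separate cultures, so p-values measure a spread that may be technical.

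Gene positions came from the RefSeq table of the build R64, which is sacCer3, with strand read from systematic names. Break peaks were placed by summit and ChIP peaks of up to 10 kb by midpoint. Arp5 was counted on the 11 chromosomes that had peaks in each of the 4 lists. Differences between libraries were tested with exact permutations (Python 3.11.15, numpy 2.4.6, pandas 2.3.3, scipy 1.17.1), and the procedures were tested on simulated data. The genes and the 11 role lists were chosen with earlier results of these data known. Genes were named by a rule: named genes by number of libraries with a summit and up to 4 unnamed ones, genes that separate 2 groups, Orc5 genes by peak width, the 6 with most and the 6 with fewest Arp5 midpoints per kb, the 3 longest, INO80 and MOT1, and up to 4 per role list. Other genes were named after their values were seen. Replicate numbers were not taken to pair libraries: deviations of same-numbered libraries correlated at -0.275 to 0.251 over 28 pairs of groups, and 3 were over 0.1. Alternatives covered how a peak is placed, score and enrichment, list length, gene length, gene names, chromosomes and each library left out.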

Additional observations from a re-analysis of the deposited data

How the results depend on the processing

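Over all alternatives 188 values kept their direction and their side of the threshold, 4 HU differences in the number of genes became 0, 16 values turned in direction and 3 counts moved by over 1.5 times; the causes were not tested. No effect of HU or depletion on the share of breaks in long genes passed after adjustment, and their signs and sizes were not stable. Without peaks in frames of Ty length the INO80 difference was 6.57 percentage points (exact permutation p = 0.0278, adjusted p = 0.0833). With named genes only the differences were 0.0228 percentage points for HU, -1.59 for INO80 and 1.38 for Mot1. With genes of at least 5000 bp they were -0.237 for INO80 and 0.185 for Mot1, and with peaks above the median score -0.0732 for INO80. For the number of long genes hit, the HU difference was 0.375 when any overlap counted. The 4 lists of fewer than 50 peaks are all those of the Mot1 strain. Without them the INO80 difference was -0.75 genes and compared only INO80 with WT. Without those lists the Mot1 difference compared only INO80 Mot1 with INO80, and was -0.25 genes (exact permutation p = 1) and -0.358 points in share. The difference in break density between long and shorter named genes was -0.113 per Mb without NUM1 and HAP1, an alternative added after seeing the data. The Arp5 difference with rapamycin was 0.0255 midpoints per kb on all chromosomes, 0.00384 with the more enriched part of each list and 0.00961 by overlap. By overlap, WT with HU lost 0 long genes against WT, INO80 with HU gained 2 against INO80, and 19 long genes held an Orc5 peak without rapamycin.

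With each library left out in turn, the share differed by -2.09 to -0.0103 points for HU, 0.475 to 2.56 for INO80 and -2.90 to -0.815 for Mot1. The number of genes differed by -0.625 to 0.13 for HU, 2.38 to 3.13 for INO80 and -4.13 to -3.38 for Mot1. The density difference was 1.91 to 2.17 per Mb, and the Arp5 difference -0.0999 to 0.0788 per kb, where a single list left in a group is taken as that group's value with no test. With the replicate block no call changed: the difference in share was -1.05 points for HU (exact permutation p = 0.0938), 1.52 for INO80 and -1.86 for Mot1, that in genes -0.25, 2.75 and -3.75, and that in Arp5 density -0.0106. Read depth is unknown, so an absent peak in a short list is no measure of absent breaks.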
